A study of Mus musculus with 12 samples.

Results

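The genes described are the mouse translation initiation factors and the kinases that act on them: every symbol beginning with Eif1 to Eif6 in the table of the wild-type libraries, pseudogene names left out. The rule gave 54 of the 16516 symbols listed in any table, of which 4 are eIF2 kinases and 50 are initiation factors or proteins that bind or regulate them. The study sequenced RNA of macrophages grown from mouse bone marrow (BMMs) to ask how the STING agonist DMXAA acts in wild-type cells and in cells labelled as knocked out for MGMT, a DNA repair protein. The 4 groups were wild type (WT, genotype WTfl/fl) with the vehicle DMSO, WT with DMXAA, MGMT KO (KO) with DMSO and KO with DMXAA, each collected at 24 h, with 3 libraries a group. The design text gives the DMXAA concentration as 10 mg/ml. How the KO was driven and whether the libraries of a group came from separate mice are not given in the sources used here, so p-values measure only the spread between these samples.

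Initiation begins when eIF2, bound to GTP and the initiator tRNA, joins eIF1, eIF1A, eIF3 and eIF5 on the small ribosomal subunit, and when eIF4F (the cap-binding eIF4E, the scaffold eIF4G and the helicase eIF4A) brings that subunit to the capped mRNA. eIF2B recharges eIF2 with GTP. The eIF2 kinases HRI (Eif2ak1), PKR (Eif2ak2), PERK (Eif2ak3) and GCN2 (Eif2ak4) phosphorylate the alpha subunit of eIF2 when cells meet heme shortage or mitochondrial stress, double-stranded RNA, unfolded protein in the endoplasmic reticulum, or amino acid shortage, and phosphorylated eIF2 blocks eIF2B; PKR is a known interferon-inducible gene. Transcript levels say nothing of the phosphorylation of these proteins, which was not measured.

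The 12 libraries held between 79482003 and 98135869 reads in listed genes. Mgmt, the targeted gene, was lower in KO but not absent: under DMSO its normalized count was 248, 233 and 269 in WT and 118, 131 and 178 in KO (log2 -0.83 ± 0.17 SE, limma adjusted p = 0.00566), and under DMXAA it was 111, 83.2 and 105 against 48.1, 59.4 and 32.8. All 12 of the macrophage markers examined were listed. Their summed level fell between the ranges of the groups, from 21420 to 21890 RPM (reads scaled to the library total) in WT with DMSO to 12150 to 12380 with DMXAA, and from 17470 to 18320 to 9930 to 9991 in KO. With libraries scaled to the same total, the typical gene also fell, by a median log2 change of -0.32 in WT and -0.39 in KO. Summed monocyte markers went from 15.8 to 22.3 up to 428 to 450 RPM in WT and from 14.9 to 17.0 up to 270 to 345 in KO. Neutrophil, dendritic, T and NK, and stromal markers each summed to at most 7.84 RPM, with Elane, Cd3d and Cd8a at 0 in every library. Neutrophil markers summed to 5.50 to 7.84 RPM in WT and 0.744 to 1.28 in KO under DMSO. Under DMXAA they summed to 2.72 to 3.09 and 0.774 to 0.834. Dendritic markers went from 0.2235 to 0.843 up to 5.36 to 5.45 RPM in WT and from 0.520 to 0.639 up to 5.05 to 6.175 in KO. The part of these marker shifts in the results below was not tested. In bulk RNA, fewer cells of a type and less RNA per cell cannot be told apart.

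All but 1 of the 54 genes were abundant enough to test in every comparison. The exception, Eif4a3l1, had 1 read in each of WT DMSO replicates 1 and 2 and KO DMSO replicate 2 and none elsewhere. Genes were called higher or lower at a limma adjusted p below 0.05 over all genes tested, on log2 of the normalized count plus 1. In WT macrophages, 21 of the 53 were higher and 13 lower with DMXAA, where 31.7% and 31.1% of all genes tested were called higher and lower. In KO macrophages 24 were higher and 14 lower, beside 33.7% and 32.9% of all genes. The share of these genes called, 64.2% in WT and 71.7% in KO, was near that of all genes, 62.8% and 66.6%. Their groups did not overlap for 41 genes in WT and 40 in KO, where 68.8% and 71% of all genes did not overlap. The changes were small: the median size of the log2 change was 0.24 in WT and 0.26 in KO, beside 0.37 and 0.39 over all genes. At least 2-fold changes were called for 18.8% of all genes in WT and 20.1% in KO, and for 1 of the 53, Eif2ak2.

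Directions of small changes depend on how the libraries are scaled. Rescaling each table to the same upper quartile moves the typical gene's log2 change by about -0.18 in WT and -0.17 in KO, and rescaling to the same total moves it by -0.32 and -0.39. With the same total, 7 of the 53 genes were higher and 32 lower in WT, and 11 higher and 34 lower in KO. Of all genes, 16% were higher and 55.6% lower in WT under that scaling, and 15.7% and 61.7% in KO. Both rescalings lowered these log2 changes, so a lower call could hardly be lost and its persistence is no test. The calls that held in all 3 scalings were 7 of 21 higher and 13 of 13 lower in WT, and 11 of 24 higher and 14 of 14 lower in KO. The 7 in WT were Eif1a, Eif2ak2, Eif2b2, Eif2b4, Eif2s2, Eif5b and Eif6. The 11 in KO were these 7 with Eif1ad, Eif2s1, Eif4h and Eif5a. A rescaling shifts all 53 genes together, so their order does not change with it.

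**Figure D1:**
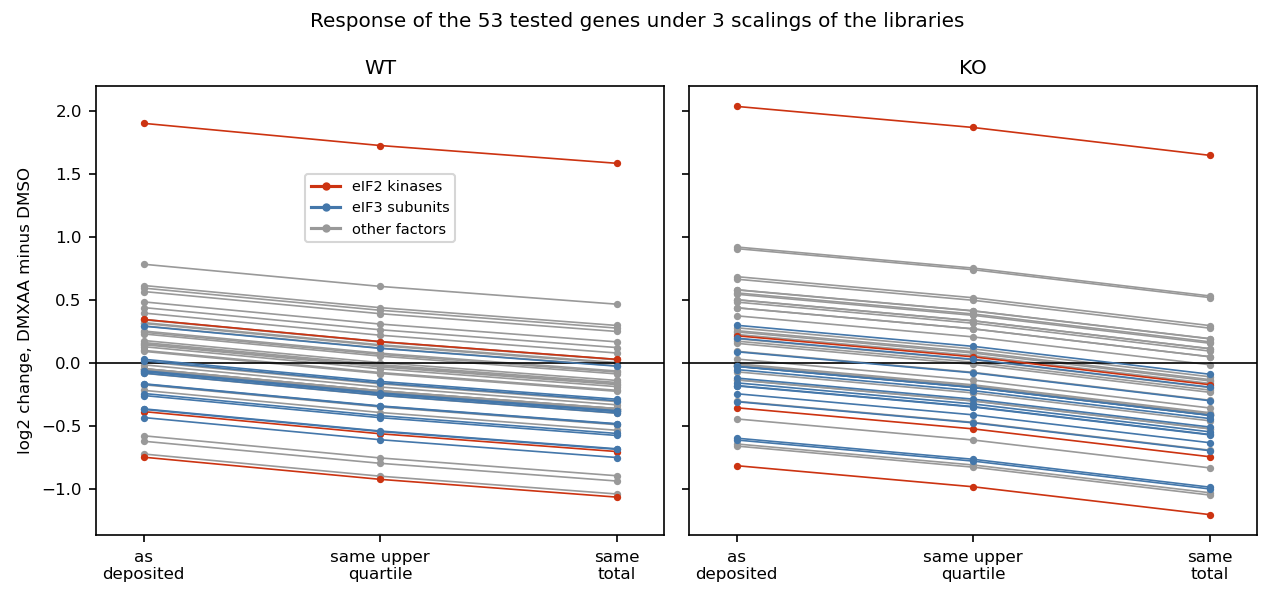
Log2 change with DMXAA (vertical axis) of each tested gene in WT (left) and KO (right) under the deposited scaling, the same upper quartile and the same total; each line is a gene, red for the 4 eIF2 kinases, blue for the 14 eIF3 genes and grey for the rest. The lines run parallel and drop together, and Eif2ak2 stays above every other line, from 1.91 to 1.59 in WT and from 2.04 to 1.65 in KO.

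The 4 eIF2 kinases moved in opposite directions. Eif2ak2, which encodes PKR, stood at a normalized count of 1841, 1894 and 1712 in WT with DMSO and 6798, 6743 and 6858 with DMXAA. In KO it stood at 1570, 1447 and 1538 with DMSO and 6380, 6142 and 6219 with DMXAA. Every treated library was above every control library, and the spread within a group was small beside the gap. The rise was 3.75-fold in WT (log2 1.91 ± 0.056 SE, limma adjusted p = 1.24e-09) and 4.11-fold in KO (2.04 ± 0.054, 2.37e-10), and it held in all 3 scalings. The test of a difference between these responses gave 0.13 ± 0.073 on the log2 scale with an adjusted p of 0.316.

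Promoter letters are shown for Eif2ak2 because it is the member with the largest change and a known target of interferon-activated factors, which bind the interferon-stimulated response element. Its core, GAAA then any 2 bases then GAAA, was searched on both strands in RefSeq windows (GRCm38.p6) of 250 bases before to 50 after each gene's start. Windows matched 43 of the 54 genes by symbol, and 4 of those 43 genes held the core, as did 3.99% of the 27025 genes with a window. By window it was 4 of 56, beside 3.44% of 32851. The windows of Eif2ak1, Eif2ak3 and Eif2ak4 did not contain these letters. The 30 bases around each match are given below on the gene's strand, 5′ to 3′, with the match in capitals; for Eif2s3x and Eif3a the core lies on the other strand, so the capitals are its complement.
Eif2ak2, chr17:78882535-78882564, minus strand: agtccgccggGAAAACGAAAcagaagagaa
Eif2s1, chr12:78861850-78861879, plus strand: cctggagcaaGAAACAGAAActtacctctc
Eif2s3x, chrX:94212636-94212665, minus strand: tgccgagcatTTTCCTTTTCtctccgagca
Eif3a, chr19:60790885-60790914, minus strand: agaccgcaaaTTTCCCTTTCccactctgtg
In Eif2ak2 the match covers bases 19 to 28 after the RefSeq start, inside the transcribed part. Of the 4 genes with the core, Eif2ak2 and Eif2s1 were called higher with DMXAA in both genotypes, though Eif2s1 in WT turned to -0.02 with the same total. Eif2s3x was called lower in both, and Eif3a was called lower in WT. The element TGATGNAA, to which CEBP-ATF dimers bind, occurred in 1 of the 43 genes, Eif2s3x, beside 4.51% of all genes with a window. A match describes letters and is not evidence of binding.

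Eif2ak3, which encodes PERK, moved the other way. In WT it went from 1319, 1650 and 1550 to 902, 845 and 935 normalized counts. In KO it went from 1731, 1688 and 1873 to 1020, 997.5 and 987. No treated library reached the lowest control library. The log2 change was -0.75 ± 0.092 in WT (limma adjusted p = 5.76e-05) and -0.81 ± 0.066 in KO (1.70e-06), a level 1.68-fold and 1.76-fold lower.

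Eif2ak4, which encodes GCN2, fell less. Its normalized counts were 5266, 4394 and 5078 in WT with DMSO and 3728, 3914 and 3616 with DMXAA. In KO they were 4719, 4701 and 4960, then 4078, 3603 and 3583. The groups did not overlap in either genotype, although WT DMSO replicate 2 lay apart from the other 2 controls. The log2 changes were -0.38 ± 0.073 (limma adjusted p = 0.00107) and -0.35 ± 0.061 (4.73e-04).

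Eif2ak1, which encodes HRI, was higher as deposited but its direction rests on the scaling. It went from 3382, 3369 and 3525 to 4439, 4626 and 4029 in WT, and from 3592, 3801 and 3953 to 4386, 4505 and 4295 in KO. Treated libraries lay above control libraries in both genotypes. The log2 change was 0.35 ± 0.063 in WT (limma adjusted p = 7.86e-04), and 0.030 and not called with the same total. In KO it was 0.22 ± 0.053 (0.00441), and it turned to -0.17, called lower, with the same total.

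**Figure D2:**
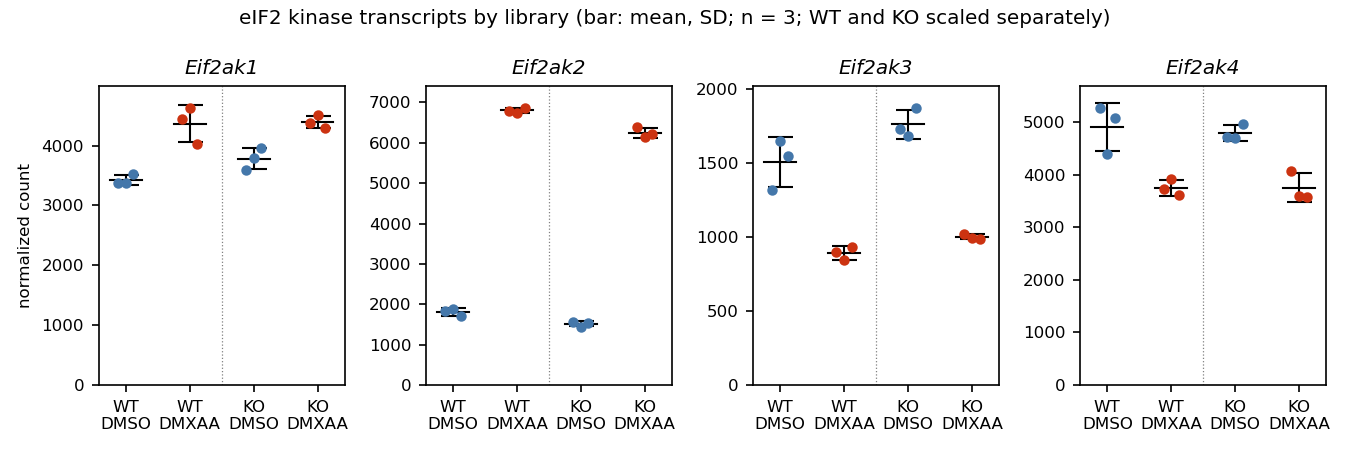
Normalized count (vertical axis, from 0) of the 4 eIF2 kinase genes in each library, with the group mean and SD (n = 3); the WT pair and the KO pair come from separately scaled tables. Eif2ak2 rises to between 6142 and 6858 in the 6 DMXAA libraries from between 1447 and 1894, and Eif2ak3 and Eif2ak4 drop without overlap.

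Because a ratio within a library does not depend on scaling, the kinases were also set beside each other per kilobase of exon. Eif2ak2 made up 19.1%, 20.3% and 17.7% of the 4 kinases' reads per length in WT with DMSO and 48.1%, 47.1% and 49.8% with DMXAA. In KO its share was 16.5%, 15.2% and 15.2%, then 45.6%, 45.4% and 46.5%. It had the highest share of the 4 in all 6 treated libraries, which did not overlap the 6 controls. The 4 shares add up to the whole, so a rise of Eif2ak2 alone lowers the shares of the others. Eif2ak3 took 11.6% to 14.98% in WT controls and 5.01% to 5.76% in treated WT libraries, the lowest share in each. Its KO shares were 15.03% to 15.7% and 6.18% to 6.26%, and in KO controls they overlapped those of Eif2ak2, which was the lower of both in replicate 3. Eif2ak4 dropped from 32.2% to 37.5% to a range of 18.02% to 18.7% in WT, and from 33.7% to 34.0% to a range of 18.3% to 20.0% in KO. Eif2ak1 took 31.7% to 32.8% in WT controls and 26.4% to 29.1% with DMXAA, and in KO 34.05% to 35.96% and then 28.3% to 30.05%, with no overlap in either. Its normalized counts rose as deposited, so the lower share does not by itself show a fall of Eif2ak1. Eif2ak2 stood at 1.30 to 1.64 times Eif2ak3 per length in WT controls and at 8.64 to 9.40 times with DMXAA.

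**Figure D3:**
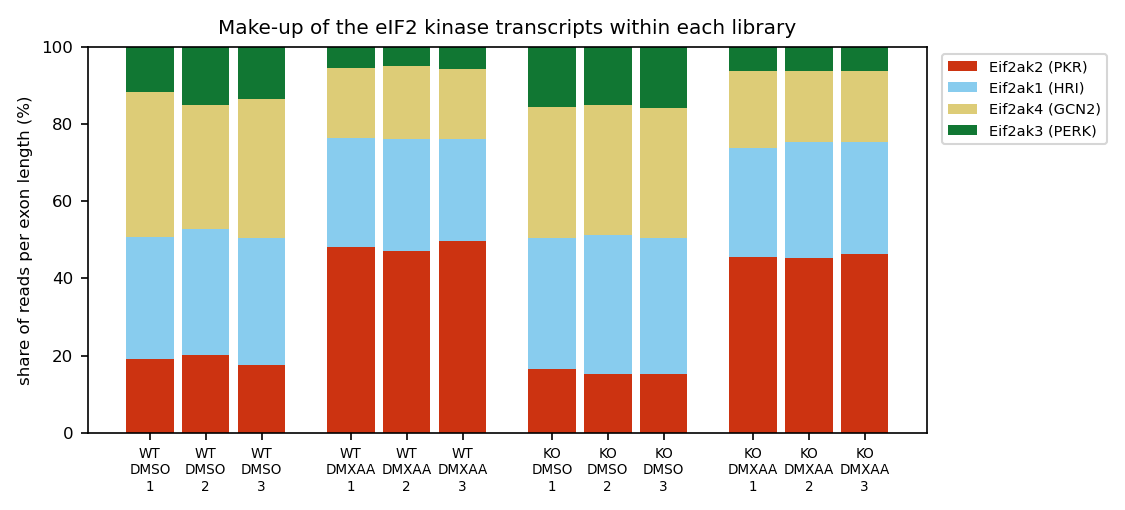
Share of the reads per kilobase of exon that each of the 4 eIF2 kinase genes took (vertical axis, percent), 1 bar per library in the 4 groups. The Eif2ak2 part covers 15.2% to 20.3% of the bar in the 6 DMSO libraries and 45.4% to 49.8% in the 6 DMXAA libraries.

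The 3 genes of eIF2, the substrate of these kinases, did not move together. Eif2s1, the phosphorylated alpha subunit, had normalized counts of 3527, 3342 and 3026 in WT with DMSO and 4153, 4157 and 3826 with DMXAA. In KO they were 2674, 2664 and 2705, then 4019, 4109 and 3920. Treated libraries were above controls in both genotypes, and the gap was wider in KO, where controls were lower. The log2 change was 0.30 ± 0.069 in WT (limma adjusted p = 0.00373; -0.02 and not called with the same total) and 0.58 ± 0.049 in KO (2.20e-06, called in all 3 scalings). Eif2s2, the beta subunit, rose in both genotypes and all 3 scalings, by 0.44 ± 0.052 and 0.56 ± 0.053. It stood at 4303, 4037 and 4025 in WT controls and 5636, 5692 and 5461 in treated WT libraries.

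Eif2s3x, the X-linked gene of the gamma subunit that holds GTP and tRNA, fell. It went from 6593, 7065 and 7347 to 4524, 4948 and 4603 in WT, and from 7308, 7574 and 7217 to 5515, 5174 and 5569 in KO. Neither genotype's groups overlapped. The log2 change was -0.58 ± 0.059 in WT (limma adjusted p = 1.54e-05) and -0.44 ± 0.049 in KO (1.71e-05). Within libraries, the ratio of Eif2s3x to Eif2s1 per length was 2.43, 2.75 and 3.15 in WT controls and 1.41, 1.55 and 1.56 with DMXAA. The KO ratios were 3.55, 3.69 and 3.47, then 1.78, 1.64 and 1.85.

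eIF2B, the exchange factor that phosphorylated eIF2 blocks, has 5 subunits. Of these, 3 were higher and none lower in WT and 4 were higher in KO, beside 31.7% and 33.7% of all genes called higher. The subunits' medians were 0.32 and 0.50 beside -0.0027 and -0.0033 for all genes. With the same total 2 were higher in each genotype, and 1 in WT and 2 in KO were lower. Eif2b2, the beta subunit, went from 1822, 1661 and 1756 to 2961, 2944 and 3128 in WT and from 1721, 1664 and 1686 to 3115, 3281 and 3137 in KO. No other initiation factor in WT changed as much upward. The fold was 1.72 in WT (log2 0.79 ± 0.061, limma adjusted p = 2.00e-06) and 1.88 in KO (0.91 ± 0.054, 1.41e-07).

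Eif2b4, the delta subunit, rose by 0.62 ± 0.049 in WT and 0.67 ± 0.051 in KO, from 3506, 3449 and 3455 to 5470, 5259 and 5241 in WT, and both calls held in all 3 scalings. Eif2b1, the alpha subunit, was at 0.32 ± 0.074 in WT and 0.50 ± 0.068 in KO as deposited, and neither call was kept with the same total (0.0048 and 0.12). Eif2b5, the catalytic epsilon subunit, was called in KO at 0.23, which became -0.16 with the same total, and stood at 0.15 without a call in WT. Eif2b3, the gamma subunit, gave -0.043 and -0.015 without a call. Per length, Eif2b4 stood at 5.73 to 6.38 times Eif2b3 in WT controls and 8.90 to 10.6 times with DMXAA. Of the factors that deliver tRNA outside the eIF2 route, Eif2d was called higher at 0.35 in WT (0.030 and not called with the same total) and 0.25 in KO (-0.14 with the same total), and Eif2a was not called.

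The eIF1 and eIF1A group is named for factors that act in scanning for the start codon. It had 4 of 5 members called higher in each genotype as deposited, beside 31.7% and 33.7% of all genes, with medians of 0.18 and 0.38. Rescaled to the same total, 1 was higher and 2 lower in WT, and 2 were higher and 2 lower in KO, Eif1 and Eif1ax being called lower in both. Eif1a, an eIF1A gene, stood at 3517, 3795 and 3747 in WT controls and 5238, 5146 and 5107 with DMXAA. In KO it stood at 3234, 3466 and 3192, then 4968, 4733 and 5126. Treated libraries were above controls throughout, and the rise of 0.49 ± 0.052 in WT (limma adjusted p = 2.05e-05) and 0.58 ± 0.055 in KO (5.42e-06) held in all 3 scalings. Eif1ad, a relative of eIF1A, was at 0.40 ± 0.081 in WT and 0.69 ± 0.074 in KO, and only the KO call held in all 3 scalings. Eif1b was called at 0.18 and 0.38, which became -0.14 and -0.01 with the same total. The WT call for Eif1b was lost without WT DMSO replicate 2 or without any 1 of the 3 WT DMXAA libraries, with an adjusted p of up to 0.108.

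eIF3, the large complex that holds the small subunit and contacts eIF4G, is the largest role here. Of its 14 genes, 7 were lower and 1 higher in WT, and 7 lower and 2 higher in KO. Among all genes, 31.1% and 32.9% were called lower. The eIF3 median was -0.12 in WT and -0.14 in KO, beside -0.0027 and -0.0033 for all genes. With the same total 13 of 14 were lower and none higher in each genotype, where 55.6% and 61.7% of all genes were lower. The lower calls shared by both genotypes were Eif3e, Eif3f, Eif3i, Eif3k and Eif3l. Eif3i, a core subunit, went from 5255, 4261 and 4713 to 3387, 3419 and 3709 in WT and from 5509, 5081 and 5178 to 3286, 3529 and 3510 in KO. All treated libraries lay below all controls, and the log2 change was -0.43 ± 0.078 (limma adjusted p = 8.15e-04) and -0.61 ± 0.054 (3.37e-06).

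Eif3f stood at 11004, 9883 and 10097 in WT controls and 7618, 8395 and 8070 with DMXAA. In KO it stood at 12181, 12138 and 12536, then 8109, 8457 and 7824. Here too the groups were apart, with changes of -0.36 ± 0.058 (limma adjusted p = 3.57e-04) and -0.60 ± 0.045 (9.58e-07). Eif3l changed by -0.37 ± 0.051 in WT and -0.18 ± 0.057 in KO. The KO call for Eif3l was lost without KO DMSO replicate 1, KO DMXAA replicate 1 or KO DMXAA replicate 3, with an adjusted p of up to 0.0741. The member that ran against the rest was Eif3d, a subunit that can bind the cap of some mRNAs, at 0.29 in WT and 0.30 in KO, which became -0.02 and -0.09 with the same total. The scaffold subunit Eif3c was called in KO at 0.20 and stood at 0.019 in WT without a call, and both turned negative with the same total (-0.19 and -0.30).

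Eif3j1 and Eif3j2 had the same reads in 11 of 12 libraries and differed by 2 reads in the other, WT DMSO replicate 2. Their counts cannot be told apart, so they are 1 measurement entered under both names. Neither was called in any comparison.

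In the cap-binding eIF4E family, most changes were small and changed sign with the scaling, except that of Eif4e in KO. Eif4e, the cap-binding subunit of eIF4F, went from 7767, 7047 and 6663 to 7876, 7945 and 8044 in WT and from 5214, 6413 and 6337 to 7819, 8200 and 8256 in KO. In WT the highest control nearly reached the lowest treated library, and in KO the groups were apart. The change was 0.15 ± 0.060 in WT (limma adjusted p = 0.0456), which turned to -0.16 with the same total and -0.02 with the same upper quartile, and 0.44 ± 0.076 in KO (4.53e-04), which was 0.051 and not called with the same total. The WT call was lost in 5 of the 6 fits that left out a library (without WT DMSO replicate 2 or 3 or any WT DMXAA library), with an adjusted p of up to 0.164. Eif4e2, a cap-binding relative tied to repression of translation, was at 0.23 and 0.26 and turned to -0.09 and -0.13 with the same total. The WT call for Eif4e2 was lost without WT DMSO replicate 2, WT DMSO replicate 3 or WT DMXAA replicate 3 (adjusted p of up to 0.0702). Eif4e3 was called in KO at 0.17 (-0.21 with the same total), a call lost in every fit that left out any 1 of the 6 KO libraries, with an adjusted p of up to 0.11.

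Among the proteins that bind eIF4E, Eif4ebp1, the 4E-binding protein released by mTORC1 phosphorylation, went from 928, 855 and 956 to 1121, 1275 and 1086 in WT and from 1122, 1064 and 1211 to 1607, 1565 and 1436 in KO. Treated libraries lay above controls in each genotype. The change was 0.34 ± 0.085 in WT (limma adjusted p = 0.00530) and 0.44 ± 0.075 in KO (4.40e-04), and neither call held with the same total. Eif4ebp2 was called lower in KO at -0.30 ± 0.073 and gave -0.22 ± 0.091 in WT, adjusted p = 0.0619. Eif4ebp3 gave 0.25 and 0.19, and Eif4enif1, the eIF4E transporter 4E-T, gave 0.094 and 0.033, all without a call as deposited. Eif4enif1 was called lower with the same total, at -0.22 and -0.36.

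Members of the eIF4A, eIF4B and eIF4H role moved in both directions. Eif4b, a cofactor of the helicase, fell from 16260, 15859 and 16171 to 9509, 9785 and 9986 in WT and from 18419, 18011 and 18061 to 11441, 11708 and 11362 in KO. The drop was 1.65-fold in WT (log2 -0.72 ± 0.043, limma adjusted p = 2.63e-07) and 1.58-fold in KO (-0.66 ± 0.039, 1.31e-07), with no overlap. Eif4h, a shorter cofactor of the same helicase, went up, from 15078, 15335 and 14506 to 18537, 18527 and 18824 in WT and from 14610, 14320 and 14896 to 20467, 20873 and 20007 in KO. Its change was 0.32 ± 0.042 in WT, which became -0.0020 with the same total, and 0.49 ± 0.039 in KO, called in all 3 scalings. Within libraries, where scaling has no part, Eif4h per length was 0.746, 0.778 and 0.722 times Eif4b in WT controls and 1.57, 1.52 and 1.52 times with DMXAA. In KO the ratio was 0.638, 0.640 and 0.664, then 1.44, 1.43 and 1.42, so the order of both cofactors was exchanged in all 6 treated libraries.

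Eif4a1 and Eif4a2 are the cytoplasmic helicases, and as deposited each was called in only 1 genotype. Eif4a1 stood at 59487, 60091 and 59865 in WT controls and 59402, 60844 and 57600 with DMXAA, overlapping ranges that gave -0.013 as deposited and -0.33, called lower, with the same total. In KO it went from 53790, 55355 and 54845 to 65720, 67309 and 66238, a change of 0.28 ± 0.035 (limma adjusted p = 4.35e-05), which turned to -0.11, called lower, with the same total. Eif4a2 was called in WT at 0.16 ± 0.048, which turned to -0.15 with the same total and to -0.01 with the same upper quartile. The WT call for Eif4a2 was lost without WT DMXAA replicate 2 (adjusted p = 0.0633). Eif4a3, the helicase of the exon junction complex, gave -0.050 and -0.021 without a call. Of the eIF4G scaffolds, Eif4g1 was called lower in WT at -0.17 ± 0.040 as deposited, and Eif4g2 and Eif4g3 were called in neither genotype. All 3 were called lower in both genotypes with the same total and with the same upper quartile.

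Among the late factors, Eif6, which keeps the large ribosomal subunit from joining early, rose in both genotypes. It went from 2421, 2266 and 2202 to 3433, 3327 and 3457 in WT and from 2145, 2014 and 2283 to 3853, 4066 and 4297 in KO. All treated libraries lay above controls, and the fold was 1.48 in WT (log2 0.57 ± 0.058, limma adjusted p = 1.48e-05) and 1.90 in KO (0.92 ± 0.065, 5.75e-07), called in all 3 scalings. Eif5b, the GTPase that joins the subunits, rose from 5475, 5606 and 5485 to 8409, 8444 and 8196 in WT (0.60 ± 0.045) and by 0.55 ± 0.045 in KO, also in all 3 scalings.

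Eif5a, which helps the ribosome pass difficult stretches and is the most abundant member per length, went from 125853, 115719 and 112088 to 136121, 141075 and 144550 in WT. In KO it went from 106359, 99356 and 111050 to 146351, 154712 and 147931. The groups did not overlap, and the change was 0.26 ± 0.051 in WT (limma adjusted p = 0.00145; -0.06 with the same total) and 0.50 ± 0.047 in KO (4.81e-06, called in all 3 scalings). Its relative Eif5a2, the least abundant tested member, fell in both genotypes, from 297, 310 and 307 to 190, 199 and 205 in WT (-0.62 ± 0.11) and by 0.64 ± 0.12 in KO. Eif5, which triggers GTP hydrolysis on eIF2, was called lower in KO at -0.13 and gave -0.044 in WT. The KO call for Eif5 was lost without KO DMSO replicate 1 or 2 or KO DMXAA replicate 2 or 3, with an adjusted p of up to 0.121.

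**Figure D4:**
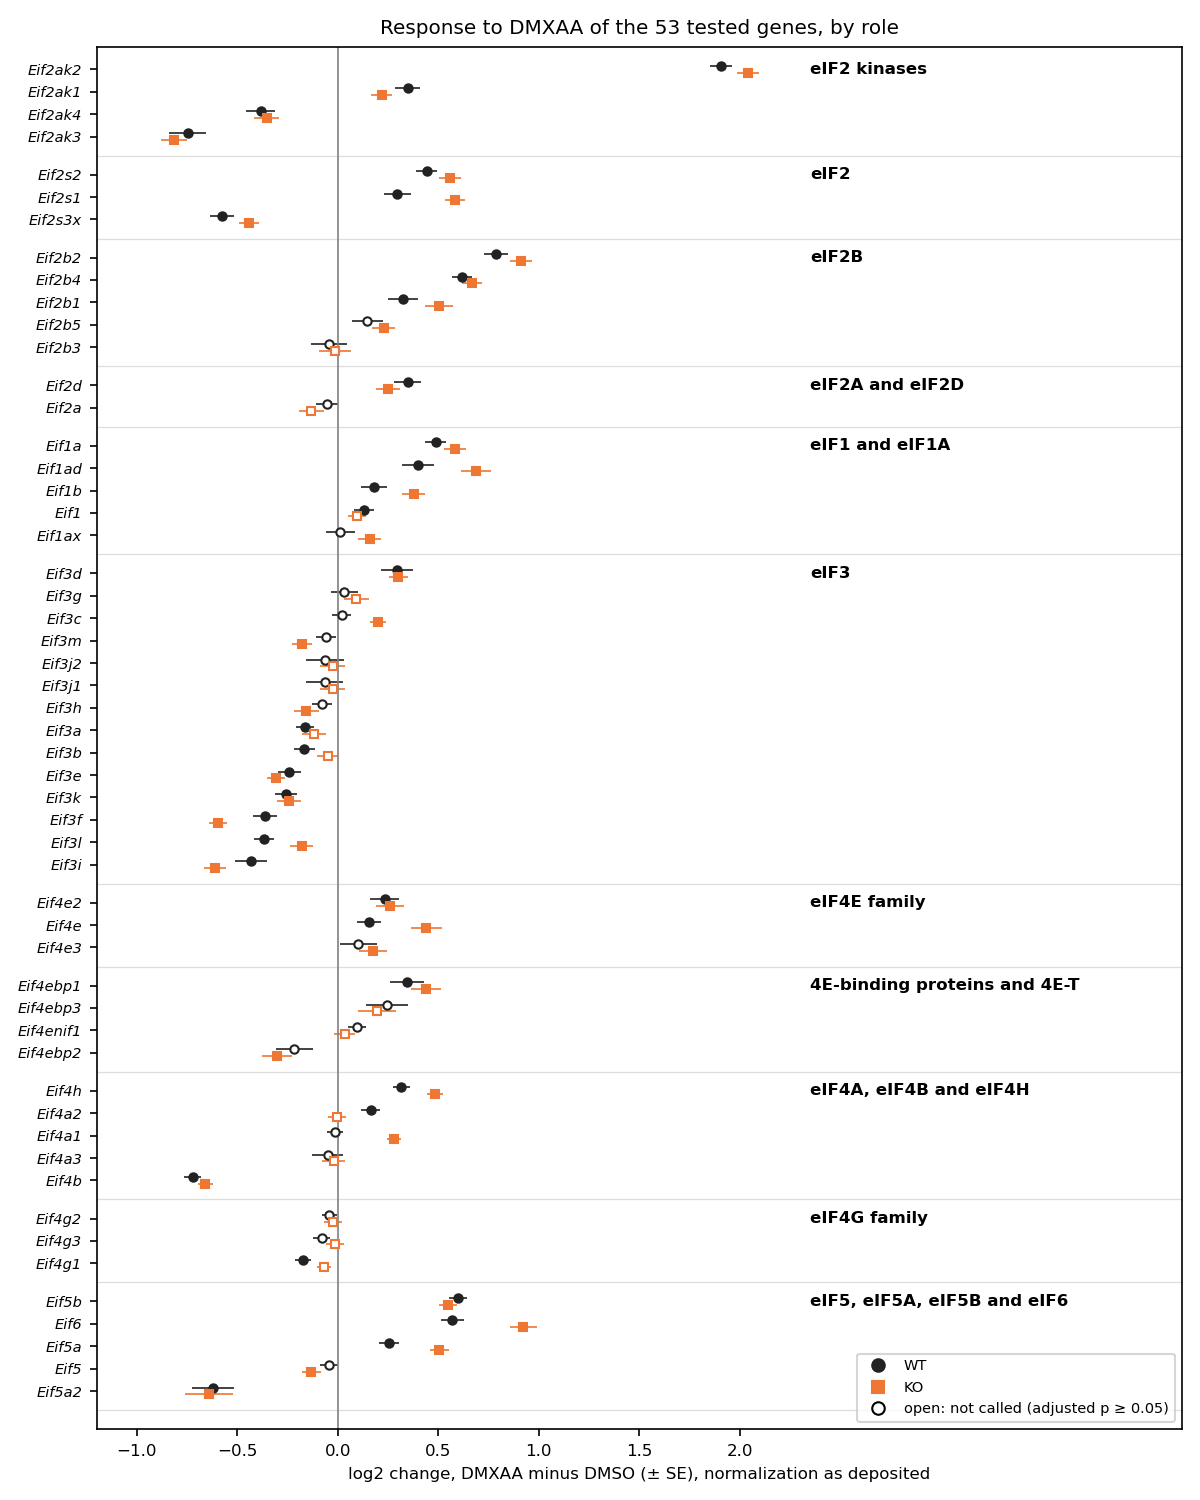
Log2 change with DMXAA and its SE (horizontal axis, deposited scaling) of the 53 tested genes grouped by role, black circles for WT and orange squares for KO; open symbols were not called. Eif2ak2 stands alone near 2, 4 of the 5 eIF2B genes lie right of 0 in both genotypes, and most of the 14 eIF3 genes lie left of it.

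Setting the genotypes' responses side by side, 19 genes were called higher in both and 10 lower in both. No gene was called in opposite directions. A call in 1 genotype only was made for 14 genes, and 10 were called in neither. All 53 as a set took less of the library with DMXAA: their summed reads, with the Eif3j copies counted once, were 0.769% to 0.794% of the library in WT controls and 0.647% to 0.652% with DMXAA. In KO the share was 0.782% to 0.797% and then 0.657% to 0.666%. Most genes lost share too: with the same total, the median log2 change of all genes was -0.32 in WT and -0.39 in KO. By reads per kilobase of exon, scaled to the library total (RPKM), Eif5a led in WT controls with 631 ± 35.3 (SD, n = 3), followed by Eif4a1 with 176 ± 2.2 and Eif4a2 with 103 ± 0.641. The kinases lay low on this scale, from 8.38 ± 0.723 for Eif2ak4 and 7.69 ± 0.191 for Eif2ak1, which did not differ beyond their spread, through 4.52 ± 0.250 for Eif2ak2 to 3.18 ± 0.380 for Eif2ak3. With DMXAA, Eif2ak2 reached 13.6 ± 0.166.

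Without DMXAA, 4 of the 53 genes were higher and 6 lower in KO than in WT, where 7.04% and 9.58% of all genes were called, 16.6% in either direction. The groups did not overlap for 22 genes, beside 34.7% of all genes. None of the 53 differed by 2-fold, as 2.91% of all genes did. The lower genes were Eif1a, Eif2ak2, Eif2s1, Eif4a1, Eif4e and Eif5a, and the higher ones Eif3f, Eif3h, Eif4a2 and Eif4ebp1. Eif2s1 was at 3951, 3749 and 3386 in WT and 2909, 2909 and 2938 in KO, and every KO library was below every WT library. The difference was -0.34 ± 0.068 (limma adjusted p = 0.00591), and that call and the one for Eif4a2 were the 2 of 10 that held in every fit leaving out a library. The others were lost without KO DMSO replicate 1 or 3 or WT DMSO replicate 2 or 3 for Eif1a (adjusted p of up to 0.154), without any library but WT DMSO replicate 1 for Eif3f (0.0963), and without KO DMSO replicate 2 or 3 or WT DMSO replicate 2 or 3 for Eif3h (0.13). Eif4e was lost without KO DMSO replicate 1 or WT DMSO replicate 1 or 2 (0.126), and Eif5a without replicate 1 or 2 of either group (0.125). Eif2ak2, Eif4a1 and Eif4ebp1 are given with their values.

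Eif4a2 was at 48760, 47777 and 48688 in WT and 62404, 63988 and 57890 in KO under DMSO, a difference of 0.34 ± 0.050 (limma adjusted p = 7.66e-04). Eif4a1 ran the other way, with 66636, 67414 and 66984 in WT and 58530, 60448 and 59569 in KO (-0.17 ± 0.042, adjusted p = 0.0181). Neither gene's groups overlapped. The Eif4a1 call was lost without KO DMSO replicate 1, WT DMSO replicate 2 or WT DMSO replicate 3 (adjusted p of up to 0.0904). Per length within each library, Eif4a1 was 1.68, 1.74 and 1.69 times Eif4a2 in WT controls and 1.16, 1.16 and 1.27 times in KO controls. With DMXAA these ratios were 1.49, 1.48 and 1.56 in WT and 1.42, 1.49 and 1.46 in KO, where the ranges overlap.

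Of the kinases, Eif2ak2 alone was called between genotypes. Under DMSO it stood at 2062, 2125 and 1915 in WT and 1708, 1580 and 1671 in KO, a difference of -0.30 ± 0.070 (limma adjusted p = 0.0138). Under DMXAA it stood at 6286, 6198 and 6320 against 5719, 5490 and 5560, a difference of -0.17 ± 0.041 (0.0165). KO libraries were below WT libraries in both conditions. The first call was lost without KO DMSO replicate 2 or WT DMSO replicate 2 (adjusted p of up to 0.0642), and the second without KO DMXAA replicate 3 (0.0535). In the authors' deposited table, the log2 difference of Eif2ak2 under DMSO was -0.30 with an adjusted p of 0.00175.

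With DMXAA, 11 of the 53 genes were higher and 1, Eif2ak2, lower in KO, where 10.7% and 10.8% of all genes were called, 21.5% in either direction. The groups did not overlap for 25 genes, beside 37.6% of all genes. At least 2-fold differences were called for 2.67% of all genes and for none of these. The higher genes were Eif1b, Eif2s3x, Eif3c, Eif3k, Eif3l, Eif4a1, Eif4a2, Eif4b, Eif4ebp1, Eif4g2 and Eif6. Eif4ebp1 was at 1036, 1172 and 1001 in WT and 1440, 1399 and 1284 in KO, all KO libraries being higher (0.36 ± 0.078, limma adjusted p = 0.00754). Its difference under DMSO was 0.27 ± 0.081 (0.0433), from 1039, 959 and 1070 to 1220, 1161 and 1316, a call lost in all 6 fits that left out any 1 library, with an adjusted p of up to 0.154. Eif3c was at 10564, 10118 and 10522 in WT and 12402, 12448 and 12346 in KO with DMXAA (0.25 ± 0.038, adjusted p = 8.90e-04). Eif1b (0.27), Eif3c, Eif3l (0.19), Eif4a2 (0.17), Eif4b (0.19) and Eif4ebp1 kept their calls in every fit leaving out a library. Eif1b, Eif3c, Eif3l, Eif4b, Eif4ebp1 and Eif6 (0.21) were called in all 3 scalings. The Eif6 call was lost without KO DMXAA replicate 3 or WT DMXAA replicate 2 (adjusted p of up to 0.0685). Also lost were Eif2s3x without replicate 1 or 3 of either group (0.14), Eif3k without KO DMXAA replicate 1 or WT DMXAA replicate 1 or 2 (0.0898), Eif4a1 without KO DMXAA replicate 2 or 3 or WT DMXAA replicate 1 or 3 (0.0737), and Eif4g2 without any library but KO DMXAA replicate 2 (0.148).

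**Figure D5:**
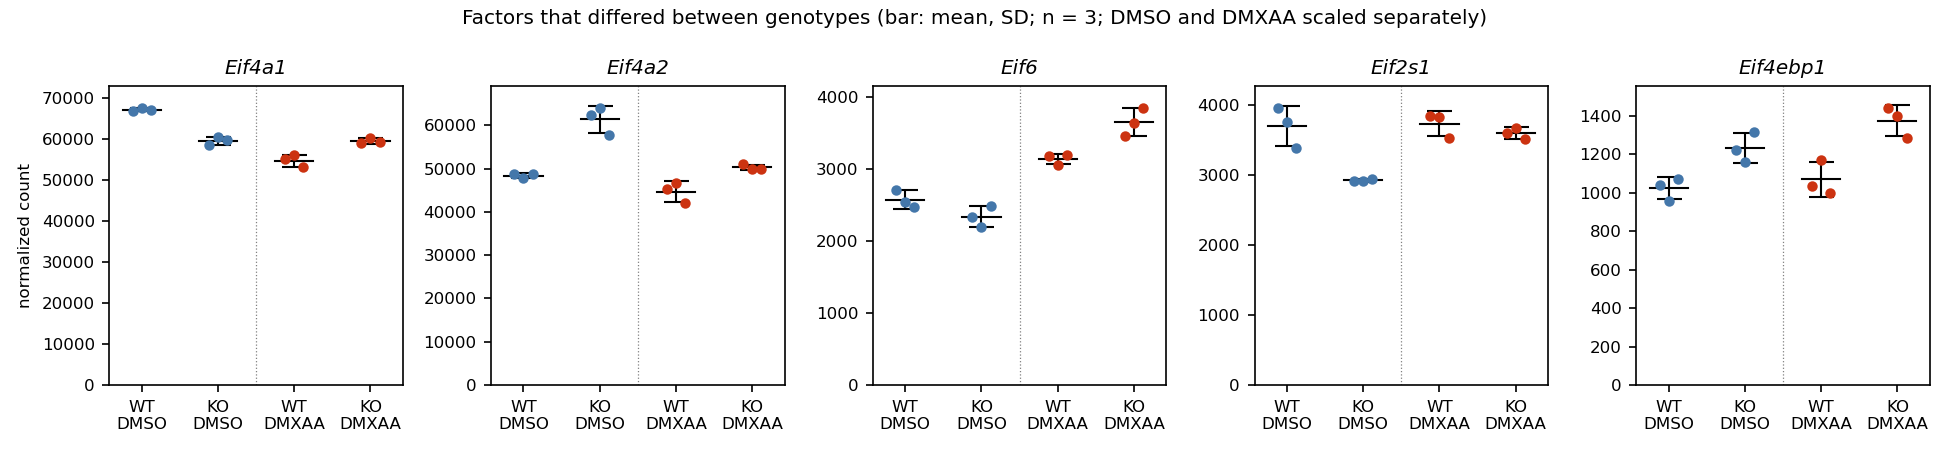
Normalized count (vertical axis, from 0) of Eif4a1, Eif4a2, Eif6, Eif2s1 and Eif4ebp1 in each library of WT and KO under DMSO (left of the dotted line) and DMXAA (right), with mean and SD (n = 3); DMSO and DMXAA libraries come from separately scaled tables, so only WT and KO within a condition compare. Eif4a1 is lower in KO under DMSO and higher under DMXAA, and Eif4ebp1 is higher in KO under both.

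The test of whether DMXAA acted differently in the genotypes, which uses all 12 libraries, called 4 of the 53 genes higher in KO and none lower, where 5.59% and 3.38% of all genes were called. In either direction 8.97% of all genes were called and 7.55% of these, and 1.24% of all genes but none of these reached 2-fold. The 4 were Eif4a1 (0.29 ± 0.047 on the log2 scale, limma adjusted p = 0.00119), Eif6 (0.35 ± 0.086, 0.0185), Eif5a (0.25 ± 0.070, 0.0398) and Eif2s1 (0.28 ± 0.083, 0.0468). Each of these was higher in KO relative to WT under DMXAA than under DMSO. The Eif4a1 call was kept in all 12 fits leaving out a library, and that for Eif6 in 11, the exception being without KO DMXAA replicate 3 (adjusted p = 0.0532). Eif5a kept its call in 3 of 12 and Eif2s1 in 1 of 12, with adjusted p values of up to 0.095 and 0.108. The Eif5a call was kept only without KO DMSO replicate 3, WT DMSO replicate 3 or WT DMXAA replicate 3, and that of Eif2s1 only without WT DMSO replicate 3. No kinase was called, and their values ran from -0.13 for Eif2ak1 to 0.13 for Eif2ak2.

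Genes around initiation were taken from lists written from textbook knowledge. As deposited, 31.7% of all genes were called higher and 31.1% lower in WT, and 33.7% and 32.9% in KO. With the same total, the shares were 16% and 55.6% in WT and 15.7% and 61.7% in KO. Of 12 genes translated or transcribed after eIF2 phosphorylation, 7 rose and 3 fell in WT and 8 rose and 3 fell in KO as deposited, with medians of 0.89 and 0.93. With the same total 7 rose and 4 fell in WT, and 6 rose and 4 fell in KO. Atf4, the transcription factor whose translation phosphorylated eIF2 favours, went from 6642, 5902 and 5944 to 18919, 18048 and 17183 in WT (1.55 ± 0.060, limma adjusted p = 9.87e-09) and rose by 1.82 ± 0.063 in KO. Ddit3, which encodes the stress factor CHOP, went from 2010, 1979 and 1962 to 9685, 10105 and 9153 in WT (2.28 ± 0.054) and rose by 3.12 ± 0.051 in KO. The difference between responses was 0.84 for Ddit3, called higher in KO, as 5.59% of all genes were. It was 0.27 without a call for Atf4. The members that fell in both genotypes were the stress regulator Ddit4, the serine-synthesis enzyme Psat1 and the cystine carrier Slc7a11. Of the 5 genes of the eIF2 phosphatase, 3 rose and 1 fell in WT and 2 rose and 1 fell in KO, and with the same total 1 rose in each while 3 and 4 fell. Ppp1r15b, the constitutive scaffold that directs the phosphatase to eIF2, rose by 0.99 ± 0.064 and 1.11 ± 0.051, and the catalytic subunit Ppp1cc changed by -0.35 and -0.46.

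Partners of the kinases split, with 3 of 10 rising and 4 falling in each genotype as deposited. These counts became 3 and 7 in WT and 2 and 7 in KO with the same total. The double-stranded RNA editor Adar, which removes a PKR trigger, went from 16246, 15294 and 15141 to 61166, 60700 and 62432 in WT (1.98 ± 0.043, limma adjusted p = 1.29e-10) and rose by 2.14 ± 0.041 in KO. Hspa5, the endoplasmic reticulum chaperone that holds PERK inactive, rose by 0.57 ± 0.041 and 0.60 ± 0.035. All 15 interferon-stimulated genes listed beside PKR rose in both genotypes and under every scaling. Isg15 stood at 5.73 and 6.22 and Zbp1 at 5.21 and 5.77, far above the 1.91 and 2.04 of Eif2ak2. Between genotypes, all 15 were lower in KO under DMSO, beside 9.58% of all genes. Under DMXAA 6 were lower and 1 higher as deposited, beside 10.8% and 10.7% of all genes. With either rescaling 8 were lower and none higher. The difference between responses was called higher in KO for all 15, beside 5.59% of all genes. That difference was 0.13 for Eif2ak2 and 0.16 for Adar, both without a call. The 15 rose by at least 2.56 in WT and 3.31 in KO, more than Eif2ak2 or Adar.

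Counts for the other lists depended on the scaling. With the same total, only 16% of all genes in WT and 15.7% in KO were called higher, so few rises are usual there. Of 9 elongation and termination factors 7 fell in each genotype, 1 rose in WT and 2 in KO as deposited, and none rose with the same total. Eef2k, the kinase that inhibits elongation factor 2, went from 2236, 2291 and 1932 to 659, 591 and 600 in WT (-1.80 ± 0.086, limma adjusted p = 4.85e-08) and changed by -1.73 ± 0.077 in KO. Eef2, its substrate, changed by -0.56 ± 0.039 and -0.68 ± 0.040. Of 8 regulators of eIF4F and poly(A)-binding proteins, 2 rose and 5 fell in WT and 3 rose and 5 fell in KO, and none rose with the same total. Pabpc4, a poly(A)-binding protein, went from 5023, 5166 and 5057 to 1753, 1735 and 1831 in WT (-1.52 ± 0.053) and changed by -1.38 ± 0.059 in KO, and Pabpc1 changed by -0.43 and -0.40. Of 10 other initiation, recycling and eIF5A-modifying genes, 1 rose and 5 fell in WT and 3 rose and 3 fell in KO, and none rose with the same total. The helicase Ddx3x changed by -0.75 and -0.73, and Bzw2, an eIF5 mimic, by -1.27 in WT and -0.47 in KO. The difference between responses was 0.81 for Bzw2, called higher in KO in all 3 scalings, and 0.023 without a call for Ddx3x. Of 10 genes of mTORC1 and its inputs, which act on the 4E-binding proteins, 6 rose in each genotype as deposited, with 1 falling in WT and 2 in KO. With the same total 2 rose and 6 fell in WT and 1 rose and 4 fell in KO. Larp1, which represses mRNAs of the translation machinery, rose by 0.71 and 0.69, and the mTORC1 subunit Mlst8 by 0.52 and 0.47, where the KO value was 0.085 and not called with the same total.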

How the data were processed

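The submitters' processing notes name HISAT2, featureCounts and mm10, with no versions given in the sources used here. Deposited values are normalized counts (a signal), which the authors scaled separately in 4 tables of 6 libraries. The authors' deposited comparison tables hold a log2 fold change, a p-value, an adjusted p-value and a score, the test statistic. Whole reads could be recovered from 100% of values (within 0.01 reads), and a library had equal reads in both of its tables. Groups follow the labels. Each comparison was fitted within 1 table with limma 3.58.1 on log2(normalized count + 1) for genes averaging 10 or more, and the interaction over 12 libraries. Calls are two-sided Benjamini-Hochberg adjusted p below 0.05 over all genes, and fold changes are on that log2 scale. Exon lengths are from GENCODE vM21. Alternatives were edgeR 4.0.16 and DESeq2 1.42.0 on the recovered reads, other pseudocounts, filters and scalings, a replicate block and leaving out each library. The fits were tested on simulated counts. Members and lists were chosen with earlier results of these data known. By rule the text names the kinases, eIF2, the eIF4E family and its binders, the member of each role with the smallest p in a comparison, members changed 2-fold or called for the interaction, and 2 genes of each pathway list. Other genes were named after their values were seen.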

Additional observations from a re-analysis of the deposited data

Results flagged for a closer look

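Genes whose response to DMXAA differed between WT and KO in the interaction test of limma over 12 libraries were Eif4a1 (0.29 on the log2 scale), Eif6 (0.35), Eif5a (0.25) and Eif2s1 (0.28), each higher in KO. The calls for Eif4a1 and Eif6 were kept with edgeR, DESeq2, both rescalings and the replicate block. For Eif2s1 the adjusted p was 0.0415 with edgeR and 0.0118 with DESeq2, but the call was lost with the same upper quartile (0.0518), no filter on low values (0.0525), the replicate block (0.0706) and the same total (0.126). The call for Eif5a was lost with no filter (0.059), the replicate block (0.061) and the same total (0.0923).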

How the results depend on the processing

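Pseudocounts of 0.5 and 5, a mean of at least 50 and edgeR kept every count of called genes within 1.5 times. With the same upper quartile, WT counts became 11 higher and 23 lower and KO lower 25; KO minus WT gave 1 higher under DMSO and 7 higher and 2 lower under DMXAA. With the same total, the WT response gave 7 higher and 32 lower and the KO response 11 and 34; KO minus WT gave 7 higher under DMSO and 6 higher and 3 lower under DMXAA, and the interaction 2 higher and 2 lower. DESeq2 gave 7 higher under DMSO, 2 lower under DMXAA and 1 lower for the interaction. With no filter the interaction had 2 higher. In the responses with the same total, 16% of all genes were higher and 55.6% lower in WT, and 15.7% and 61.7% in KO. The cause of these shifts was not tested.

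Among the genes named by rule, and counting those called before or after rescaling, signs that turned with the same total in WT were Eif1b (-0.14), Eif2s1 (-0.021), Eif3c (-0.30), Eif4a2 (-0.15), Eif4e (-0.16), Eif4e2 (-0.085), Eif4enif1 (-0.22) and Eif5a (-0.062), and in KO Eif1b (-0.013), Eif2ak1 (-0.17), Eif2d (-0.14), Eif3c (-0.19), Eif4a1 (-0.11), Eif4e2 (-0.13), Eif4e3 (-0.21) and Eif4enif1 (-0.36). With the same upper quartile they were Eif3c (-0.16), Eif4a2 (-0.012) and Eif4e (-0.021) in WT and Eif4enif1 (-0.13) in KO.

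Leaving out 1 library gave 17 to 22 higher and 12 to 14 lower in WT, 22 to 24 and 11 to 15 in KO, 1 to 4 and 1 to 5 under DMSO, 7 to 10 and 0 to 1 under DMXAA, and 1 to 5 and 0 to 1 for the interaction. Where this leaves 2 libraries in a group, limma pools their spread with the other group's. Deviations of same-numbered libraries from their group means had correlations of -0.036 to 0.066. The numbers follow the sample titles, while library names run from II to IV under DMSO and from I to III under DMXAA. The responses were therefore matched across unlike numerals. With 3 libraries a group, this check cannot tell whether samples were paired. With a replicate block the interaction had 2 higher, and the responses had 19 higher and 13 lower in WT and 23 and 13 in KO.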
